A study of Mus musculus with 8 samples.

Results

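The receptors Gpr84, Gpr56, Gpr34, Gpr171, Gpr35 and Gpr31c are 6 of the 94 genes with a Gpr symbol, out of 22549 gene symbols in the tables. They were selected on their measured levels, which separated infiltrating macrophages from microglia in these same libraries, so their difference between the populations is given as a description, with no test. The data are 8 RNA sequencing libraries of mouse retina on day 7 after an injury, 4 of infiltrating macrophages (numbered 5 to 8) and 4 of microglia (numbered 1 to 4). Every mouse carried Msi1-CreERT2/+, a tamoxifen-inducible Cre under control of the Msi1 gene, and R26R-DTA/+, a Cre-dependent gene for diphtheria toxin A, on a mixed C57BL/6 and 129 background at about 5 months of age. All 8 libraries therefore come from injured retinas, and no uninjured retina was analysed here. Titles of the macrophage libraries begin with GFP and those of the microglial libraries with cont, but the labels name no GFP allele and do not say how the cells were separated. The labels do not tie libraries to animals; a p-value here therefore reflects the scatter of 4 libraries against 4, some of which may be technical.

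Receptors of this kind cross the cell membrane and pass a signal from a bound ligand to a G protein inside the cell. The Gpr symbol was given to receptors whose ligand was unknown when they were named, and many have since been paired with lipids, metabolites or peptides. Gpr34 and Gpr171 belong to the P2Y-like group, whose best known members bind nucleotides; Gpr34 responds to lysophosphatidylserine, a lipid of damaged membranes, and Gpr171 has been paired with the neuropeptide BigLEN. Gpr84 responds to medium-chain fatty acids, Gpr35 to kynurenic acid and other metabolites, and human GPR31 to 12-HETE, a product of arachidonic acid. Gpr56, also named Adgrg1, is an adhesion receptor with a long extracellular part that binds matrix and cell-surface proteins. Gpr34, Gpr84 and Gpr56 are known in microglia of the brain.

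The labels were checked against marker lists. Summed FPKM (a level corrected for transcript length and library size) of 12 microglial genes was 916 to 2753 in macrophages and 2820 to 4203 in microglia, and that of 11 monocyte and macrophage genes was 469 to 2311 in macrophages and 169 to 215 in microglia. The ranges of both sums stood apart in the direction of the labels, although macrophages 6 came close to the lowest microglial library on the microglial list. Without Sparc (158.5 to 693.9 FPKM in microglia, at most 0.242 in macrophages), macrophages 6 would exceed microglia 2. Of the 12 microglial genes, 6 had no overlap, all lower in macrophages. Among the rest were Tmem119 (mean 235.7, against 272.6 FPKM in microglia) and Csf1r (243.0 against 293.3). Of the 11 others, 7 had no overlap, all higher in macrophages, but Fn1 averaged less there (26.05 against 47.36 FPKM). Over all genes tested below, 7.63% had no overlap. Estimated depth was 21.6 to 24.3 M fragments in macrophages and 11.6 to 20.7 M fragments in microglia. Summed FPKM of 4 Y-linked genes was below 2 in all macrophage libraries (0.0107 to 1.97) and 0.0533 in microglia 4, but 11.7 to 25.8 in microglia 1 to 3, so that a sex difference runs partly along the comparison. Genes at 1 FPKM or more numbered 8814 to 10282 in macrophages and 5992 to 9505 in microglia, fewest in microglia 2 and then 3, and values without that pair are given where they matter. In such bulk libraries, fewer cells of a type and less RNA per cell cannot be told apart.

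The sequence upstream of the start of transcription is shown for the 4 receptors that RefSeq's table of promoters holds (build GRCm38.p6), as the stretch that a reader would compare between receptors high in different populations. Gpr84 and Gpr56 were high in microglia, and Gpr35 and Gpr31c in macrophages. Each line gives the 250 bases before a start, 5' to 3' on the gene's strand; RefSeq lists 2 starts each for Gpr56 and Gpr35, and the window shown was picked because it held a motif match, which the other window of each did not. Capitals mark matches, on either strand, to GAGGAA, the core bound by ETS factors of the PU.1 type, or to TGANTCA, the AP-1 site. The windows lie at chr15:103310439-103310688 on the minus strand (Gpr84), chr8:94984149-94984398 on the plus strand (Gpr56), chr1:92978653-92978902 on the plus strand (Gpr35) and chr17:13052281-13052530 on the minus strand (Gpr31c, listed there as Gpr31b).
Gpr84: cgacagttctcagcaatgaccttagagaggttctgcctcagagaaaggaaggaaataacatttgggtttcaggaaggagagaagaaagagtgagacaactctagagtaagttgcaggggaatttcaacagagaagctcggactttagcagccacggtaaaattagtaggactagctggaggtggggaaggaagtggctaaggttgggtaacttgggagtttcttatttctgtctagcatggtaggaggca
Gpr56: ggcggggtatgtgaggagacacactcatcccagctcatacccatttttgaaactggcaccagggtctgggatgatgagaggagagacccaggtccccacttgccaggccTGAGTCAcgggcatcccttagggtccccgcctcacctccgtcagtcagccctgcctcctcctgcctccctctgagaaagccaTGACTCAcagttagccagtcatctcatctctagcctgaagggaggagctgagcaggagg
Gpr35: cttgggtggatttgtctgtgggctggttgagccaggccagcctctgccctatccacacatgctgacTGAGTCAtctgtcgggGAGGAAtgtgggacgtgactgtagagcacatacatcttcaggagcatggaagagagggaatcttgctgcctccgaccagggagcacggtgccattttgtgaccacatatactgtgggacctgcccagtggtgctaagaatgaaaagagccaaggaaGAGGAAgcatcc
Gpr31c: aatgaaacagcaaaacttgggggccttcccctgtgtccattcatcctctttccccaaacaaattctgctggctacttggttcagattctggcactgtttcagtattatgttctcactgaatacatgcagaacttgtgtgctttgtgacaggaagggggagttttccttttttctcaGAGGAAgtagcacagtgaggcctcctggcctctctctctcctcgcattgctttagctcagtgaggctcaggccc
Gpr34 and Gpr171 are not in the table.

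The Gpr84 window held no match to any of 5 motifs searched on both strands. The Gpr56 window held 2 AP-1 matches, 141 and 59 bases before the start. The Gpr35 window held 1 AP-1 match at 184 bases and 2 GAGGAA matches at 168 and 12 bases before the start. The Gpr31c window held 1 GAGGAA match, 74 bases before the start. GAGGAA was present in 23.3% of all 32851 promoter windows of this length and TGANTCA in 6.75%. The other motifs searched were that of interferon response elements (2.98% of windows), TTGCNNAA of C/EBP factors (9.56%) and TATAAA (12.4%), and none of the 4 windows shown held them. These shares are per window, so they give no measure for windows picked for a match. A match is only a run of letters, and these data hold no measure of factor binding.

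Gpr34, the lysophosphatidylserine receptor, was the most abundant of the 6 in 3 of 4 microglial libraries. It reached 7.66, 49.4, 27.8 and 6.17 FPKM in macrophages 5 to 8, against 184.9, 57.5, 70.1 and 185.9 FPKM in microglia 1 to 4. No library overlapped, but macrophages 6 and microglia 2 were only 8.11 FPKM apart, and microglia fell into a high pair (1 and 4) and a low pair (2 and 3). The mean was 22.8 ± 20.3 FPKM in macrophages and 124.6 ± 70.4 FPKM in microglia (SD, n = 4 each), a difference of -2.66 on the log2(FPKM + 1) scale, macrophages minus microglia. Without microglia 2 and 3 the difference was -3.43. Gpr34 was not absent from macrophages: among genes that passed the filter (at least 1 FPKM in at least 4 libraries) it lay at percentile 46.8 to 90.01 in macrophages and 90.6 to 97.8 in microglia. Within macrophages its level followed the order 6, 7, 5, 8, which was also the order of the summed microglial markers (2753, 1532, 1373 and 916 FPKM); their part in the Gpr34 level was not tested.

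Gpr171, the other P2Y-like receptor of the 6, ran the opposite way. It stood at 12.6, 8.28, 4.01 and 33.0 FPKM in macrophages 5 to 8, against 0.0411, 0, 0.177 and 2.20 FPKM in microglia 1 to 4. Every macrophage library was above every microglial one, with macrophages 8 highest and with microglia 4 far above the other microglial libraries. The mean was 14.5 ± 12.8 FPKM in macrophages and 0.604 ± 1.07 FPKM in microglia (SD, n = 4 each), a difference of 3.10 on the log2(FPKM + 1) scale. A single fragment on this transcript was worth about 0.0198 to 0.0416 FPKM, so the value in microglia 1 is near that of 1 fragment. With a term for Y-linked expression the difference was 1.86. Dendritic cell markers were likewise highest in macrophages 8 (summed 178 FPKM) and lowest among macrophages in number 7 (4.46 FPKM), where Gpr171 was also lowest. Between these, macrophages 6 (81.9 FPKM) stood above macrophages 5 (53.7 FPKM), the reverse of the order of Gpr171. These markers summed to 0.269 to 11.6 FPKM in microglia, and their part in the Gpr171 level was not tested. T and NK cell markers summed to 2.37 to 7.79 FPKM in macrophages and 0.185 to 5.18 FPKM in microglia, and they too were highest in macrophages 8 and lowest among macrophages in number 7; their part was not tested. Of 11 such markers, 6 reached 1 FPKM in some library, among them Nkg7 with 3.17 FPKM in macrophages 8 and 0 in the other libraries, while Cd3d, Cd3e, Cd4, Cd8a and Klrb1c stayed below 1 FPKM in all 8.

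Gpr84, the medium-chain fatty acid receptor, had the widest difference of the 6 on the log2(FPKM + 1) scale. It measured 0.752, 10.8, 0.527 and 5.71 FPKM in macrophages 5 to 8, against 88.5, 73.0, 65.7 and 84.0 FPKM in microglia 1 to 4. Microglial libraries lay close together and far above all macrophage libraries, among which macrophages 6 and 8 were well above 5 and 7. The mean was 4.43 ± 4.84 FPKM in macrophages and 77.8 ± 10.4 FPKM in microglia (SD, n = 4 each), a difference of -4.36. With a pseudocount of 0.1 it was -5.01, less wide than that of Gpr56 (-5.38) and of Gpr171 (5.15). The mean in microglia was 17.6 times the mean in macrophages. The coefficient of variation was 109% in macrophages and 13.3% in microglia, where both this coefficient and the SD on the log2(FPKM + 1) scale (0.19) were the lowest of the 6. Summed neutrophil markers (41.8 to 235 FPKM in macrophages and 0.196 to 1.37 FPKM in microglia) were highest in macrophages 6, as was Gpr84, but not in macrophages 8; their part in the Gpr84 level was not tested.

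Gpr35, which responds to kynurenic acid, had the lowest coefficient of variation of the 6 within macrophages, although Gpr56, near 0 there, had the lowest SD on the log2(FPKM + 1) scale (0.15, against 0.41 for Gpr35). Its level was 16.7, 23.7, 12.3 and 22.6 FPKM in macrophages 5 to 8, against 1.89, 0.0140, 1.63 and 4.75 FPKM in microglia 1 to 4. All macrophage libraries were above all microglial ones, by at least 7.56 FPKM, and microglia 4 was the highest of the microglia. The mean was 18.8 ± 5.33 FPKM in macrophages and 2.07 ± 1.97 FPKM in microglia (SD, n = 4 each), a difference of 2.90 on the log2(FPKM + 1) scale, with a coefficient of variation of 28.3% in macrophages. Without microglia 2 and 3 the difference was 2.24, and with the Y-linked term it was 2.05.

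Gpr31c, in mouse the counterpart of the 12-HETE receptor of human cells by name, was also higher in macrophages. It was listed at 15.2, 11.8, 13.4 and 2.41 FPKM in macrophages 5 to 8, against 1.04, 0, 0 and 1.36 FPKM in microglia 1 to 4. The groups did not overlap, but macrophages 8 was only 1.05 FPKM above microglia 4. The mean was 10.7 ± 5.69 FPKM in macrophages and 0.601 ± 0.706 FPKM in microglia (SD, n = 4 each), a difference of 2.76 on the log2(FPKM + 1) scale. The library order in macrophages differed from that of Gpr171, which was highest in macrophages 8 where Gpr31c was lowest. The level is uncertain, because the 960 bases of the locus have 3 near-identical copies elsewhere on chromosome 17 of mm9, at 99.4%, 98.5% and 98.5% identity, and how shared reads were divided is not known.

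Gpr56, the adhesion receptor, was low in microglia and almost undetected in macrophages. It was listed at 0, 0, 0 and 0.231 FPKM in macrophages 5 to 8, against 3.42, 2.40, 15.3 and 7.21 FPKM in microglia 1 to 4. Only macrophages 8 had any signal, and microglia 3 had the highest level. The mean in microglia was 7.09 ± 5.87 FPKM (SD, n = 4), and no fold is given because 3 macrophage libraries were listed at 0. A single fragment on the transcript was worth 0.0129 to 0.0271 FPKM, so that the signal in macrophages 8 was above that of 1 fragment. The difference was -2.67 on the log2(FPKM + 1) scale, which understates changes of low genes.

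**Figure D1:**
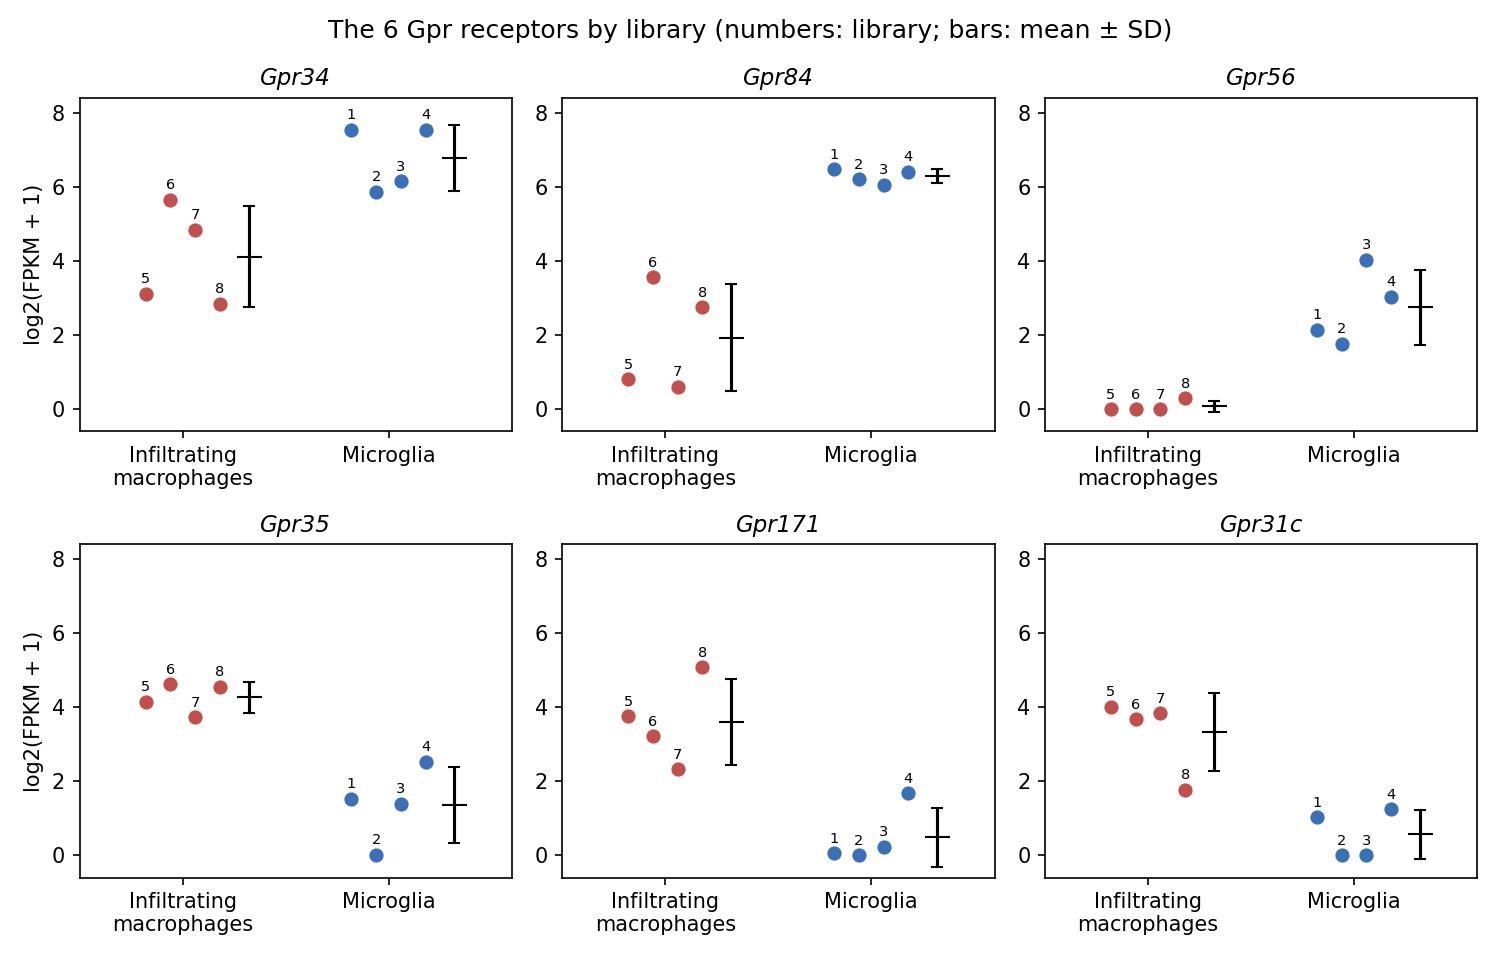
Level of each of the 6 receptors in every library, as log2(FPKM + 1), with infiltrating macrophages in red and microglia in blue; digits give the library, and bars the mean and SD of 4 libraries. Gpr34, Gpr84 and Gpr56 were lower in macrophages and Gpr35, Gpr171 and Gpr31c higher, with no overlap between the groups in any panel; the smallest gaps were those of Gpr34 and Gpr31c.

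The 3 receptors higher in macrophages shared a feature within microglia, since each had its highest microglial value in microglia 4 (4.75 FPKM for Gpr35, 2.20 for Gpr171 and 1.36 for Gpr31c). That library was also the microglial one with the lowest Y-linked sum, the most genes at 1 FPKM or more (9505) and the greatest estimated depth (20.7 M fragments). The part of these in the levels was not tested. The feature was not particular to the 3 receptors. Of other genes averaging more in macrophages, Ptafr was also highest in microglia 4 within microglia, while S1pr2, Cd97 and Ccdc102a were not. Relt and Trp53i11 were highest there too, but they were picked for a profile like that of Gpr171, so nothing is read from them. Microglia 2, with the fewest genes at 1 FPKM or more (5992), was the lowest microglial library for Gpr35 and, at 0, for Gpr171. The 3 receptors lower in macrophages did not share a highest library: Gpr34 was highest in microglia 4, Gpr84 in microglia 1 and Gpr56 in microglia 3.

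Together the 6 receptors made up 23.2%, 24.5%, 33.0% and 22.9% of the summed FPKM of all 94 Gpr-named genes in macrophages 5 to 8, against 67.2%, 45.3%, 58.2% and 60.3% in microglia 1 to 4. The share was lower in every macrophage library than in every microglial one. Gpr34 and Gpr84 took the first and second ranks in all 4 microglial libraries, with Gpr84 ahead in microglia 2 and Gpr34 ahead in the others. In macrophages the top rank went to Gpr65, a proton-sensing receptor, in all 4 libraries, and Gpr34 was second in macrophages 6 and 7. The ratio of Gpr34 to Gpr84 varied from 1.08 to 52.8 between macrophage libraries and from 0.788 to 2.21 between microglial libraries.

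**Figure D2:**
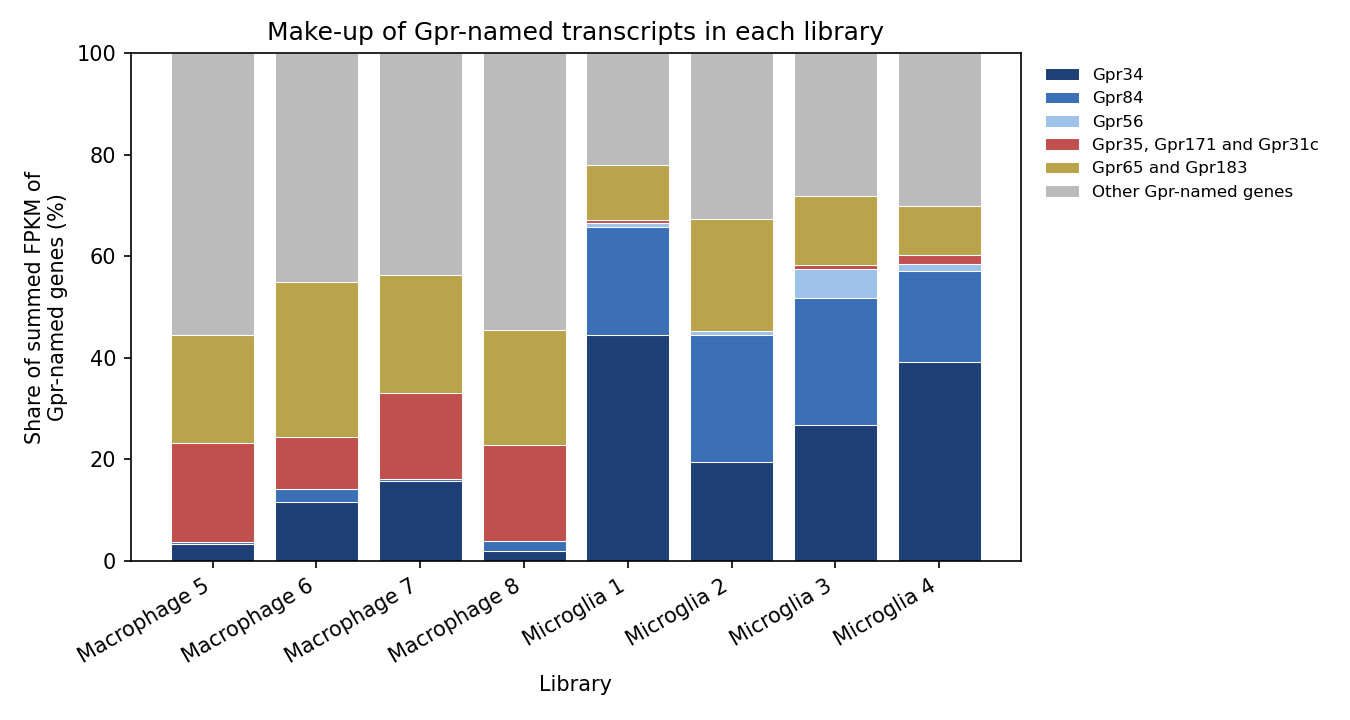
Make-up of the summed FPKM of the 94 Gpr-named genes in each library, in percent, with macrophages at the left and microglia at the right. Gpr34 and Gpr84 (dark and mid blue) fill much of the microglial bars, while Gpr35, Gpr171 and Gpr31c (red) are visible mainly in macrophages; the 6 receptors together reach 22.9% to 33.0% in macrophages and 45.3% to 67.2% in microglia.

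Over all 9352 genes that passed the filter, limma called 219 at an adjusted p below 0.05, which is 2.34%; 1.65% were higher and 0.695% lower in macrophages. Without overlap between the 4 macrophage and 4 microglial libraries were 7.63%. Of 21 Gpr-named genes tested, 7 were called, and 6 of these are the receptors chosen for that difference, so nothing is read from the count. Outside the 6, 1 of 15 tested Gpr-named genes was called and 2 had no overlap, and the median fold of the 15 was 0.66 on the log2(FPKM + 1) scale, beside 0.37 over all genes. With no filter on low values, limma called 0 of 72 Gpr-named genes outside the 6, and 5 had an unadjusted p below 0.05; with the Y-linked term it called 0 of 15, and 1 had an unadjusted p below 0.05.

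The other abundant receptors of the family did not separate. Gpr65 had 27.5, 94.0, 30.02 and 45.6 FPKM in macrophages 5 to 8 and 34.1, 46.1, 17.5 and 31.7 FPKM in microglia 1 to 4, a fold of 0.49 (adjusted p = 0.729) that turned to -0.06 under upper-quartile scaling. Gpr183, the receptor for oxysterols, had 21.3, 34.8, 10.8 and 23.5 FPKM in macrophages and 10.8, 18.5, 18.2 and 13.7 FPKM in microglia, a fold of 0.46 (adjusted p = 0.761) that turned to -0.08 under the same scaling. In both cases the libraries of the populations overlapped. Folds of the 14 uncalled Gpr-named genes ran from -0.93 (Gpr137b) to 1.62 (Gpr108), with adjusted p of 0.362 or more. Just outside the choice lay Gpr180, whose lowest macrophage value was 4.44 FPKM and highest microglial value 4.35 FPKM, while just inside lay Gpr31c (2.41 and 1.36 FPKM) and Gpr34, where the highest macrophage value was 49.4 FPKM and the lowest microglial value 57.5 FPKM.

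**Figure D3:**
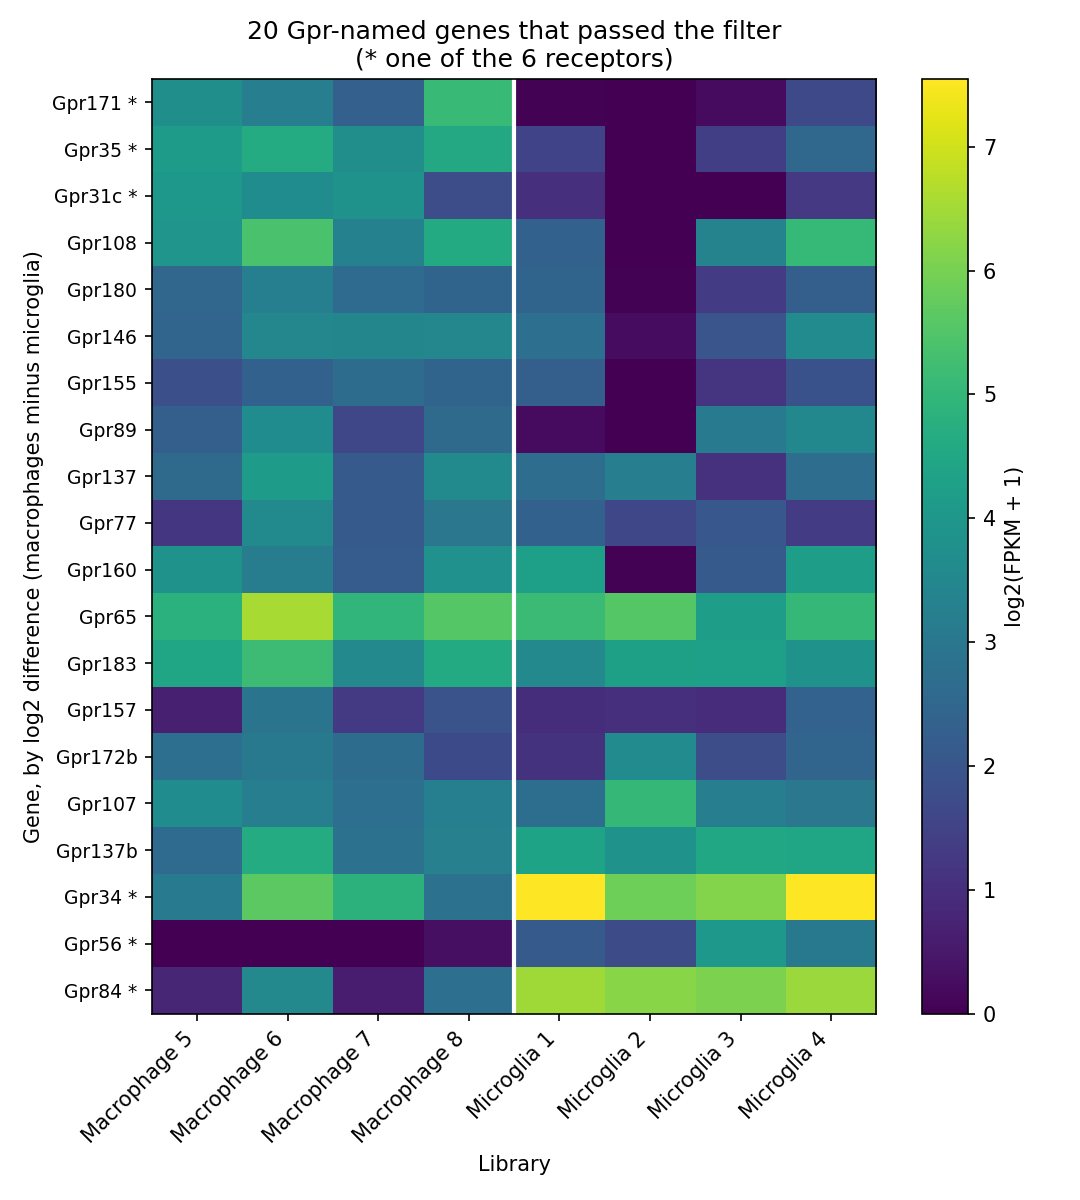
Level of 20 Gpr-named genes that passed the filter in each library, as log2(FPKM + 1) on a colour scale, sorted by the difference of macrophages (4 columns at the left) minus microglia (4 columns at the right); stars mark the 6 receptors. Gpr171, Gpr35 and Gpr31c at the top are bright in macrophages and dark in microglia, Gpr84, Gpr56 and Gpr34 at the bottom are the reverse, and Gpr65 and Gpr183 between them overlap.

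Position was not used to choose the receptors, and their loci are given here in mm9 coordinates. Gpr84 lies at chr15:103138666-103140869 on the minus strand, Gpr56 at chr8:97501009-97538108 on the plus strand, and Gpr34 at chrX:13209895-13217984 on the plus strand. Gpr171 lies at chr3:58900370-58905743 on the minus strand, Gpr35 at chr1:94869696-94882968 on the plus strand, and Gpr31c at chr17:13244187-13245146 on the minus strand. Gpr56 has 13 coding exon intervals and each of the others has 1. Gpr34 lies inside Cask and Gpr171 inside Med12l, each on the strand opposite to its host and with no exon in common. Of 35 other genes within 100 kb of the 6 receptors, 17 were tested and 2 were called, which is 11.8%, against 2.34% of all tested genes. Both were among the 3 tested neighbours of Gpr56, so nothing is read from the count about the other receptors.

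Ccdc102a, 59.0 kb from Gpr56, had 10.02, 15.6, 3.98 and 8.25 FPKM in macrophages 5 to 8, against 0.158, 0.0689, 0 and 0.131 FPKM in microglia 1 to 4. The fold was 3.14 ± 0.62 (SE, limma, adjusted p = 0.00432). Ccdc102a passed the filter only through the 4 macrophage libraries, where it is high, so nothing is read from its call. The populations did not overlap. The call held when any 1 library was left out and was lost with no filter on low values and with the Y-linked term, where the fold was 2.88 (adjusted p = 0.369); over all alternatives its adjusted p ranged from 0.00314 to 0.369. Gpr97, an adhesion receptor 3.5 kb from Gpr56, was listed at 0.0523, 0, 0 and 0 FPKM in macrophages 5 to 8, against 2.45, 0, 0 and 1.03 FPKM in microglia 1 to 4, and was too low to be tested.

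None of the 15 other tested neighbours was called by limma, and their folds ran from -0.69 to 1.28 with adjusted p of 0.381 or more. Cask, which holds Gpr34, had a fold of 0.91 (adjusted p = 0.381), opposite in sign to Gpr34. P2ry14, a receptor for UDP-sugars 12.8 kb from Gpr171, had 3.98, 6.504, 3.38 and 6.88 FPKM in macrophages and 0, 1.42, 16.8 and 4.12 FPKM in microglia, a fold of 0.64 (adjusted p = 0.757). Gpr82, 20.5 kb from Gpr34, reached at most 3.75 FPKM (macrophages 8).

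**Figure D4:**
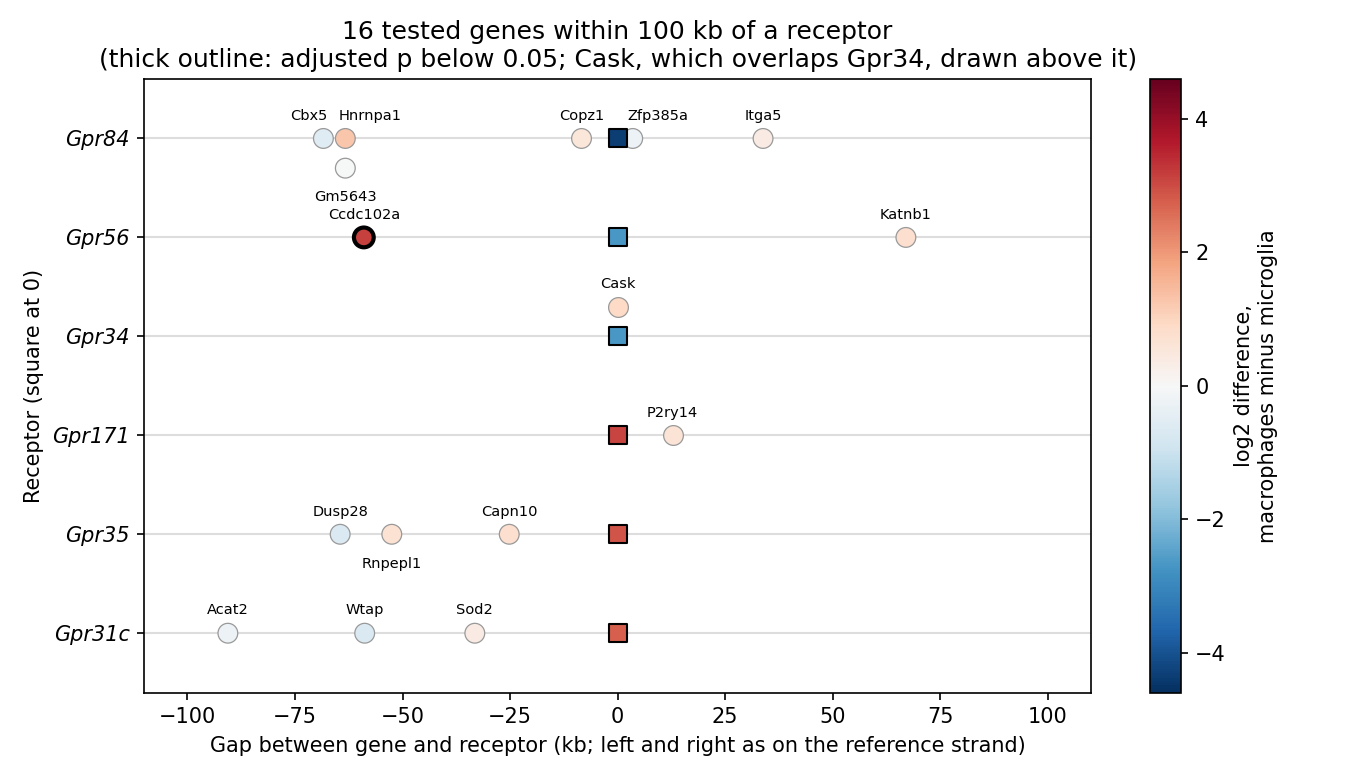
The 16 genes drawn lie within 100 kb of a receptor and passed the filter; they are placed by their gap to it in kb (left and right as on the reference strand) and coloured by the log2(FPKM + 1) difference of macrophages minus microglia; squares are the receptors and a thick outline marks an adjusted p below 0.05. Ccdc102a, in red at 59.0 kb, stands beside Gpr56 in blue, while the other neighbours drawn are pale.

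Receptors and signalling genes related to the 6 were followed in 9 lists, chosen with earlier results known and counted here without the 6. Over all tested genes limma called 2.34%, and 7.63% had no overlap. Of 3 tested adhesion receptors, limma called 2 higher and 0 lower in macrophages, among them Cd97, a leukocyte receptor for CD55. Cd97 had 21.1, 21.8, 2.95 and 22.3 FPKM in macrophages 5 to 8, against 0, 4.68, 0 and 0.664 FPKM in microglia 1 to 4, a fold of 3.07 ± 0.78 (SE, limma, adjusted p = 0.0336). Its libraries overlapped, since macrophages 7 lay below microglia 2. The call was lost without microglia 1, 3 or 4 or macrophages 5, 6 or 8 (adjusted p 0.00246 to 0.135 over the 8 libraries left out).

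Of 6 tested P2Y-like receptors other than Gpr34 and Gpr171, limma called 1 lower and 0 higher in macrophages (16.7%, against 2.34% of all tested genes). The called gene was P2ry12, the ADP receptor that marks microglia. It had 17.3, 29.0, 4.54 and 10.6 FPKM in macrophages 5 to 8, against 86.8 to 152.1 FPKM in microglia. It fell by 3.03 on the log2(FPKM + 1) scale (SE 0.56, limma, adjusted p = 0.00254) with no overlap, like Gpr34 in direction. The median fold of the 6 was 0.45.

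Of 11 tested lipid and metabolite receptors other than Gpr84, Gpr35 and Gpr31c, limma called 2 higher and 0 lower in macrophages. That is 18.2%, against 2.34% of all tested genes. Folds were above 0 for 9 and below 0 for 2, with a median of 0.46. No overlap was seen for 3 of the 11, against 7.63% of all tested genes. S1pr2, a receptor for sphingosine 1-phosphate, had 23.8, 31.96, 4.64 and 10.8 FPKM in macrophages 5 to 8, against 0.604, 0, 2.03 and 0.0878 FPKM in microglia 1 to 4, a fold of 3.33 ± 0.73 (SE, limma, adjusted p = 0.0117). Ptafr, the receptor for platelet-activating factor, had 4.24, 13.8, 9.69 and 8.75 FPKM in macrophages 5 to 8, against 0, 0, 0 and 3.12 FPKM in microglia 1 to 4, a fold of 2.73 ± 0.69 (SE, limma, adjusted p = 0.0295). Neither overlapped, and both stood on the side of Gpr35 and not of Gpr84. Another of the 11, not called, had no overlap on the side of Gpr84. It had 4.78 to 11.4 FPKM in macrophages and 13.2 to 89.9 FPKM in microglia (fold -1.71, limma adjusted p = 0.21). The call of S1pr2 was lost without macrophages 5 or 6 (adjusted p 0.00702 to 0.065 over the 8 libraries left out), and that of Ptafr without microglia 1 or 3 or any of macrophages 5 to 8 (0.0117 to 0.1).

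Signal transducers that such receptors share were mostly not called, although some had no overlap between the populations. These were 1 of 8 tested alpha subunits (Gnas) and 2 of 8 beta and gamma subunits (Gng5 among them). They also included 2 of 5 receptor kinases and arrestins, 2 of 7 regulators and 0 of 4 cyclases and phospholipases. Over all tested genes the share was 7.63%. Arrb2 and Adcy7 overlapped. Of 8 tested G protein alpha subunits limma called 0 (2 had an unadjusted p below 0.05); Gnas, the most abundant, had 152.7, 221.3, 69.2 and 114.5 FPKM in macrophages 5 to 8, against 491.1, 301.4, 443.4 and 329.0 FPKM in microglia 1 to 4, a fold of -1.58 (adjusted p = 0.0806). Of 8 beta and gamma subunits limma called 0 (2 with an unadjusted p below 0.05), the median fold was -1.0, and the most abundant, Gng5, had a fold of -1.69 (adjusted p = 0.0704). Of 5 receptor kinases and arrestins 0 were called (2 with an unadjusted p below 0.05), with Arrb2, the arrestin highest here, at 0.85 (adjusted p = 0.472). Of 4 adenylate cyclases and phospholipases C beta 0 were called (1 with an unadjusted p below 0.05), and Adcy7, the cyclase with the highest level, had a fold of -0.36 (adjusted p = 0.817). Among 7 regulators of G protein signalling, which shorten the signal, 1 was called: Rgs12 had 3.74, 3.84, 1.07 and 6.93 FPKM in macrophages 5 to 8 and was listed at 0 in all 4 microglial libraries (limma adjusted p = 0.0202). Rgs12 passed the filter only through the 4 macrophage libraries, where it is high, so nothing is read from its call. That call was lost without microglia 1, 3 or 4 or macrophages 5 or 8 (adjusted p 0.00827 to 0.0802).

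Of 6 tested genes related to the ligands or partners of the 6 receptors, limma called 1 lower and 0 higher in macrophages (16.7%, against 2.34% of all tested genes). No overlap was seen for 3 of the 6, against 7.63% of all tested genes. Besides the called gene, 1 was lower in macrophages (fold -1.43, limma adjusted p = 0.114) and 1 higher (fold 1.73, adjusted p = 0.0682). The higher one passed the filter only through macrophages, so its direction was fixed by the filter. Cd81, a tetraspanin that binds Gpr56, had 131.6 to 916.8 FPKM in macrophages, against 2746 to 3593 FPKM in microglia. It was lower in all 4 macrophage libraries and fell by 3.0 on the log2(FPKM + 1) scale (SE 0.52, limma, adjusted p = 0.00111). The calls of P2ry12 and Cd81 held when any 1 library was left out and were lost with no filter on low values and with the Y-linked term (adjusted p = 0.218 for both), within ranges over all alternatives of 0.00015 to 0.218 and 0.000454 to 0.218. With the Y-linked term limma called 0 of the 58 tested genes of these 9 lists, in place of 7, and 12 had an unadjusted p below 0.05.

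The genes whose profile over the 8 libraries was most like each receptor were sought among 8408 tested genes, by the root mean square distance between log2(FPKM + 1) values centred on each gene's mean. Since the receptors were chosen for the contrast, these genes show it too, and the distances are a description. Nearest to Gpr34 were Plxdc2 (distance 0.44), Phyhd1 (0.50) and Timp2 (0.62), a metalloprotease inhibitor. Plxdc2 had 2.71, 10.6, 5.61 and 1.66 FPKM in macrophages 5 to 8, against 58.7, 33.9, 30.8 and 59.8 FPKM in microglia 1 to 4, which repeats the low microglia 2 and 3 and the macrophage order of Gpr34. Nearest to Gpr171 were Filip1l (0.44), Trp53i11 (0.50) and Relt (0.54), a receptor of the TNF receptor family, and all 3 were highest in macrophages 8 and in microglia 4, as Gpr171 was.

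Nearest to Gpr84 were Fabp3, a fatty acid binding protein (0.77), Cryba4 (0.91) and Cd34 (0.92), at larger distances than those of the other receptors. Nearest to Gpr56 were Mlxipl, a glucose-responsive transcription factor (0.29), Jam2, a junction adhesion molecule (0.45), and Slc38a3 (0.59), all highest in microglia 3. Nearest to Gpr35 were Ccnd2, a cyclin (0.36), Fam48a (0.38) and Supt5h (0.42). Nearest to Gpr31c were Col14a1 (0.54), Fgd3 (0.61) and Sesn2 (0.62).

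Markers of other cells moved with the comparison in several lists. Of 7 neutrophil markers in the files, 3 were tested (S100a8, S100a9 and Retnlg), and all 3 were higher in macrophages. They were listed at 0 in all 4 microglial libraries and passed the filter only through macrophages, so that direction was fixed by the filter. Mpo and Camp were below 1 FPKM in every library. Of 9 dendritic cell markers, limma called 0 of 2 tested (both with an unadjusted p below 0.05). Another 3 did not overlap and were higher in macrophages, but they failed the filter. All 3 were at 0 in microglia and below 1 FPKM in macrophages 7 as well (0.0689 to 0.165 FPKM). Among them Ccr7, which guides dendritic cells to lymph nodes, had 15.8, 11.1, 0.165 and 62.4 FPKM in macrophages 5 to 8. It was at 0 in all 4 microglial libraries. Its order in macrophages was 8, 5, 6, 7, the same as that of Gpr171. The sum of the 9 markers had another order, 8, 6, 5, 7 (178, 81.9, 53.7 and 4.46 FPKM), and some of the 9 peaked in other macrophage libraries. Clec9a alone of the 9 was below 1 FPKM in every library. Ccr7, Glul and Nkg7 were singled out after their values were seen. Of 6 Muller glia and astrocyte markers 3 were tested, and none of these overlapped: Slc1a3 was lower (fold -2.90, limma adjusted p = 0.0165) and Vim higher in macrophages (fold 2.29, adjusted p = 0.0266), while Glul, with 7.39 to 18.7 FPKM in macrophages and 44.4 to 67.6 FPKM in microglia, missed the threshold (fold -2.03, adjusted p = 0.0504). The call of Slc1a3 was lost without macrophages 5, 6 or 8 and that of Vim without microglia 2 or 3 or macrophages 5, 6 or 8 (adjusted p 0.00508 to 0.742 and 0.00165 to 1.0 over all alternatives). Photoreceptor and neuron markers summed to 48.1 to 157.8 FPKM in macrophages and 82.3 to 165.3 FPKM in microglia; limma called 0 of 7 tested (1 with an unadjusted p below 0.05), and 6 of the 7 had folds below 0, the side of Gpr34, Gpr84 and Gpr56, with a median of -1.16. Red cell genes summed to 0.693 to 23.7 FPKM in macrophages and 0.683 to 2437 FPKM in microglia, with the highest sum in microglia 3, where Gpr56 was also highest. B cell markers summed to 4.28 to 14.8 FPKM in macrophages and 0 to 35.6 FPKM in microglia, and Cd79a was below 1 FPKM in every library. Their part in the levels of the 6 receptors was not tested.

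**Figure D5:**
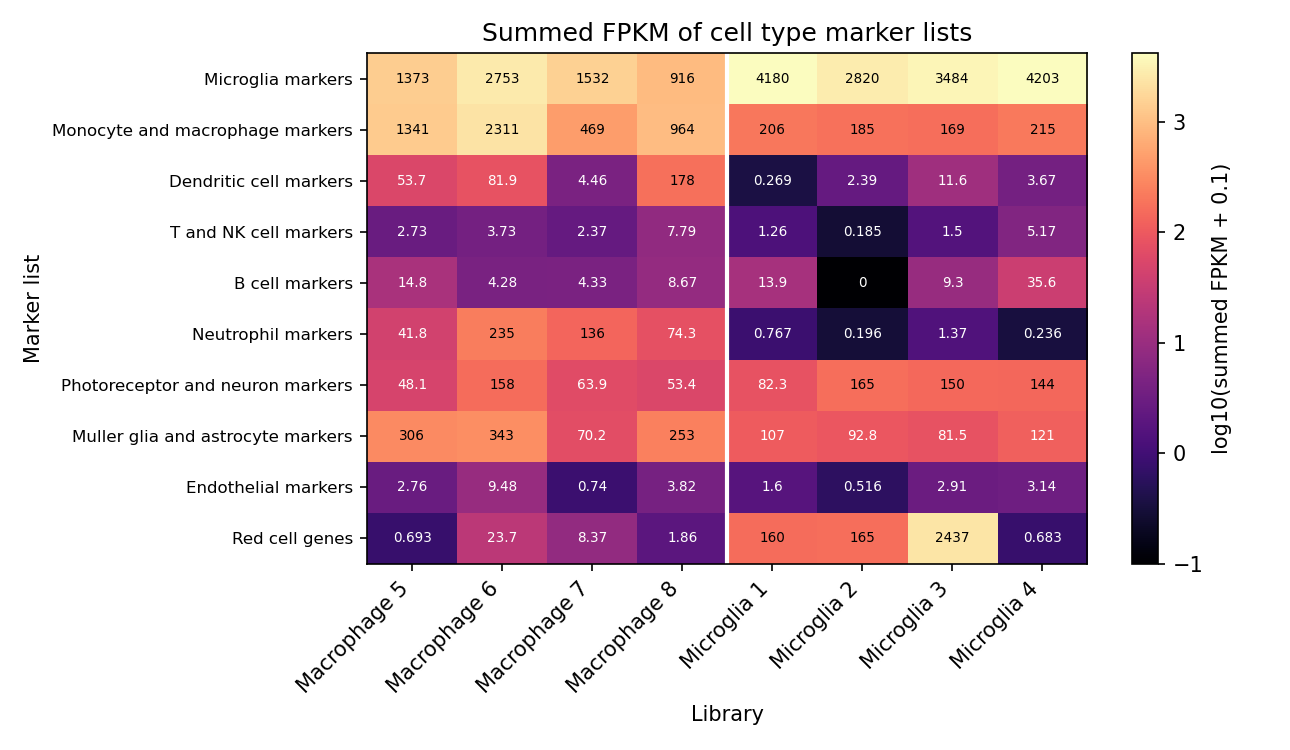
Summed FPKM of cell type marker lists in each library, written in each cell and coloured by log10(summed FPKM + 0.1), with macrophages in the 4 columns at the left and microglia in the 4 at the right. Microglial markers were lower and monocyte and neutrophil markers higher in macrophages, dendritic cell markers peaked in macrophages 8 at 178 FPKM, and red cell genes in microglia 3 at 2437 FPKM.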

How the data were processed

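RNA of infiltrating macrophages and of microglia was measured in 4 libraries each, grouped by the tissue subtype in the labels. Per the file headers, the authors deposited an FPKM estimate per gene; bcl2fastq 1.8.4, Cufflinks 2.1.1 and the mm9 build were used, per the submitters' processing notes. Neither aligner nor annotation is given in the sources used here. FPKM corrects for depth and length, not for composition, and are not counts. Rows sharing a symbol were summed, and 9 symbols with a failed status were left out. Exact zeros may be failed estimates. Depth was estimated from the smallest steps of the values, assuming fragments of 150 bases.

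The 9352 genes that reached 1 FPKM in 4 or more libraries were compared on log2(FPKM + 1) by limma 3.58.1 (R 4.3.3), using an intensity trend, no covariate, two-sided, Benjamini-Hochberg adjusted, called below 0.05. The script was tested on simulated data. Folds are macrophages minus microglia and understate changes of low genes. Copies of Gpr31c were sought with BLAST+ 2.17.0 on mm9, and loci were taken from the files and GENCODE. The 6 receptors and all gene lists were chosen with earlier results of these data known. Named are the 6 receptors, other Gpr-named genes called or averaging at least 5 FPKM, genes within 100 kb, up to 3 called genes per list or else the most abundant, and the 3 most similar profiles; of these 81 genes, 63 were followed one by one and the rest summarised; a few genes are counted but not reported here by name. Alternatives changed the pseudocount, filter, scaling, trend, row handling, a term for Y-linked expression and the libraries used. Fits that left out libraries kept the genes tested in the full fit.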

Additional observations from a re-analysis of the deposited data

Results flagged for a closer look

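In 126 groups of 4 libraries, 1 for each population and each of 63 genes, 12 values stood far from the other 3 by Dixon's criterion. Its nominal rate of about 1 in 20 groups holds for independent, normally distributed values. FPKM are skewed, a single value beside 3 zeros is always flagged, and some of the 63 genes were picked for similar profiles. The count of 12 is therefore not read against that rate. Among the 6 receptors, Gpr56 had 0.231 FPKM in macrophages 8 while the other macrophage libraries were listed at 0, and Gpr171 had 2.20 FPKM in microglia 4, beside 0 to 0.177 FPKM in the other microglial libraries. Microglia 4 also stood above the rest of its group for Ptafr (3.12 FPKM), Trp53i11 (3.93 FPKM) and Relt (2.90 FPKM), each of which averaged more in macrophages. Microglia 2 stood apart for Gpr107 (31.9 FPKM, beside 5.62 to 8.41), Zfp385a (15.6 FPKM), Cd97 (4.68 FPKM) and Cd81 (3593 FPKM, beside 2746 to 2792). Microglia 3 stood above its group for Slc38a3 (8.93 FPKM). Among macrophages, library 5 was low for Gpr146 (4.50 FPKM, beside 9.99 to 10.4) and library 7 for Cd97 (2.95 FPKM, beside 21.1 to 22.3).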

How the results depend on the processing

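No paired analysis was possible because macrophage libraries are numbered 5 to 8 and microglial ones 1 to 4, so no number is shared. None of the 6 receptors changed sign under up to 19 alternatives: the log2 difference ran from -5.01 to -3.92 for Gpr84, -5.38 to -2.24 for Gpr56, -3.43 to -2.24 for Gpr34, 1.86 to 5.15 for Gpr171, 2.05 to 3.97 for Gpr35 and 2.19 to 4.62 for Gpr31c. The count of called genes (219) was 136 with a pseudocount of 0.1, 50 with no filter, 132 with a filter of 5 FPKM and 25 with the Y-linked term, and 119 (without macrophages 8) to 258 (without macrophages 7) when 1 library was left out. The count of called Gpr-named genes (7), of which 6 were selected on this difference so that nothing is read from it, was 3, 0, 4 and 1 under the same alternatives, 4 without microglia 2 and 3, and 2 (without macrophages 5) to 7 (without microglia 2) with 1 library left out; it was 3 without macrophages 6 or 8 and 4 without microglia 1. Outside the 6 it was 1, except for 0 with no filter (5 with an unadjusted p below 0.05) and 0 with the Y-linked term (1). The 2 called neighbours were 0 with no filter (3 with an unadjusted p below 0.05), 1 with the filter of 5 FPKM and 0 with the Y-linked term (2), and 2 without any 1 library. The 7 called receptor and signalling genes were 0 with no filter (31 with an unadjusted p below 0.05), 3 with the filter of 5 FPKM, 11 with quantile normalization and 0 with the Y-linked term (12), and 3 (without macrophages 5) to 8 with 1 library left out. With no filter 20454 genes were tested; the cause of the other changes was not tested. Scaling moved the median fold of all genes (0.37) to 0.13 by median of ratios and to -0.03 by upper quartile or quantiles, and the share of calls higher in macrophages (70.3%) to 55.1%, 48.9% and 53.4%. Signs turned for uncalled genes: under the Y-linked term Adcy7 (0.12), Gpr108 (-0.14), Gpr160 (-0.43), Gpr172b (-0.04), Gpr89 (-0.73) and Sod2 (-0.18); under upper-quartile scaling Gpr172b (-0.18), Gpr183 (-0.08), Gpr65 (-0.06) and Sod2 (-0.07); under quantile normalization Gpr172b (-0.04) and Sod2 (-0.07); without microglia 2 and 3 Adcy7 (0.20), Gpr107 (0.36), Gpr160 (-0.97), Sod2 (-0.12) and Zfp385a (0.39); without microglia 2 Gpr107 (0.24), Gpr160 (-0.26) and Zfp385a (0.23); without microglia 1 Gpr172b (-0.09) and P2ry14 (-0.01). With 1 library left out these ran from -0.53 to 0.24 (Gpr107), -0.26 to 1.14 (Gpr160), -0.5 to 0.23 (Zfp385a), -0.09 to 0.76 (Gpr172b) and -0.01 to 1.37 (P2ry14). FPKM give no counting error, so a difference between low genes has no interval for counting error.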

Other observations

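Gpr-named genes below the filter held further low signals, mostly in a single population. Gpr141 had 7.10, 4.07, 0.181 and 8.34 FPKM in macrophages 5 to 8, against 0.206, 0, 0 and 0 FPKM in microglia 1 to 4. It overlapped microglia through macrophages 7. Gpr132, a receptor for oxidised fatty acids, had 1.52, 1.06, 0.187 and 2.17 FPKM in macrophages, while all 4 microglial libraries stood at 0. Gpr18 had 10.1, 0, 0.0377 and 9.44 FPKM in macrophages, against 0, 0.0436, 0 and 6.92 FPKM in microglia, so that its only microglial library above 1 FPKM was number 4. Gpr125, an adhesion receptor, had 0, 0, 0.235 and 0.0403 FPKM in macrophages, against 1.77, 19.7, 6.29 and 0.0215 FPKM in microglia. None of these was tested, and they were chosen after their values were seen. Of the 94 Gpr-named genes, 46 reached 1 FPKM in any library and 16 were listed at 0 in all 8.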
